A study of Mus musculus with 15 samples.

Results

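The exocrine pancreas was followed through 10 genes in the islet chromatin of 3 diet groups. Of these genes, 7 encode digestive enzymes or their precursors (Cpa1, Cela1, Cela2a, Cela3b, Pnlip, Prss2 and Ctrb1), 2 encode transcription factors of acinar cells (Ptf1a and Bhlha15) and 1 encodes a keratin of duct cells (Krt19). They were taken by name, for their cell type, out of 21951 protein-coding genes of the GENCODE annotation of the mouse genome build GRCm38. At each gene the peaks of 2 histone marks were read from 6 lists, 1 per mark and diet. H3K27Ac, acetylation of lysine 27 of histone H3, accompanies promoters and enhancers in use. H3K27Me3, in which that lysine carries methyl groups, is laid down by Polycomb complexes at silenced genes.

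All islets came from adult males of the CBA inbred strain. Mice were given regular chow (RD), a high-fat diet (HFD), or the high-fat diet formulated with O304 (HFD-O304), a compound that activates the kinase AMPK. Islets were released with collagenase, picked by hand, fixed and pooled, and the labels do not give the number of mice behind a sample. The 15 samples comprised 12 immunoprecipitations, with 2 replicates for each mark and diet, and 3 inputs that were not used to call the peaks and are not analysed here. The replicates were merged by the authors before peaks were called. Hence there was 1 list per mark and diet, the spread between replicates is unknown and no difference between diets could be tested.

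Acinar cells fill the exocrine pancreas and export digestive enzymes, most of them as inactive precursors, into ducts lined by Krt19-positive epithelium. Ptf1a, joined by Rbpjl in the PTF1 complex, switches on the enzyme genes through sites made of an E-box (CACCTG) and a TC-box (TTTCCC), while Bhlha15, also called Mist1, organises the secretory apparatus. Islets lie embedded in this tissue, so a preparation of islets can carry acinar and duct cells along, and a mark measured in the pooled chromatin cannot be assigned to a cell type. A mark that is present in few cells and a weak mark in many cells cannot be told apart either.

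The letters before the start sites of the 2 transcription factor genes are shown because these were the members with the most CpG dinucleotides, written here as capitals, and because each of them carried 1 of the marks in at least 1 diet. Sequence, strand and start come from RefSeq on GRCm38.p6, and each line runs 5′ to 3′ over the 250 bases that end just before the start. The reference is C57BL/6J, whereas the mice were CBA.
Bhlha15, chr5:144190036-144190285, plus strand: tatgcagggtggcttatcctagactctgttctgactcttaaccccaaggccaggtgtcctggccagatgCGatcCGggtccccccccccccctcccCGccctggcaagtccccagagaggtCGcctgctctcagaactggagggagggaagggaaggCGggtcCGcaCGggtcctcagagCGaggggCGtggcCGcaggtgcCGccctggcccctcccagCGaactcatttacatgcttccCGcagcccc
Ptf1a, chr2:19445413-19445662, plus strand: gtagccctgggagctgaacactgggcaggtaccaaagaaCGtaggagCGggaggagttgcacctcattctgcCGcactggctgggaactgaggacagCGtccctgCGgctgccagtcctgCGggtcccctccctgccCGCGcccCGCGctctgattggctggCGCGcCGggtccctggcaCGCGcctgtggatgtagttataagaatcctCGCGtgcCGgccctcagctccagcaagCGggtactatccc

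By contrast, the promoters of the enzyme genes Cela1 and Prss2 are shown as 2 of the members that had no peak. Capitals mark a TATA box (TATAAA), the E-box letters (CACCTG, which on the other strand read CAGGTG) and the TC-box letters (TTTCCC, which on the other strand read GGGAAA).
Cela1, chr15:100687921-100688170, minus strand: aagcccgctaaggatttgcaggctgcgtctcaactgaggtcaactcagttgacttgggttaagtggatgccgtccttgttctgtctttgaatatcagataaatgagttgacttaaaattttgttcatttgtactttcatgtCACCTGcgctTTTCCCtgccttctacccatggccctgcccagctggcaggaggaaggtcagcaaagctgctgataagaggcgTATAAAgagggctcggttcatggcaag
Prss2, chr6:41521526-41521775, plus strand: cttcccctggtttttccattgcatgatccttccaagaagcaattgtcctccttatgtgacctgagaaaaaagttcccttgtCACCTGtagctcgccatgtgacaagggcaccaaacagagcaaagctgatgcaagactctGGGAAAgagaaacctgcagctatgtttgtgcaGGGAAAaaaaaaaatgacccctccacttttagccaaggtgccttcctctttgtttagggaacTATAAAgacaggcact

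Among the enzyme genes the only peak at a promoter was a short one of H3K27Ac at Cela3b in RD islets, whose letters on the strand of the gene follow, with GGGAAA in capitals.
Cela3b, chr4:137430667-137430955, minus strand: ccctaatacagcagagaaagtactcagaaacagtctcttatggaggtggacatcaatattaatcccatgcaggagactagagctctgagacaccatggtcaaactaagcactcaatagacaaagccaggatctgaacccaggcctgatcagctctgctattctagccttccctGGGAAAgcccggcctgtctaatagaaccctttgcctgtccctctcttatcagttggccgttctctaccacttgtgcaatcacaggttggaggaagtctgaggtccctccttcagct

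The lists rested on 83773042 to 95218072 kept fragments for H3K27Ac and on 54166902 to 74870300 for H3K27Me3. Peak strength is given as enrichment, the mean pileup of fragments in the peak divided by the pileup that the kept fragments would give if spread evenly over the genome. The weakest H3K27Ac peak had an enrichment of 2.40 in the RD list, 2.26 in the HFD list and 2.37 in the HFD-O304 list, and the weakest H3K27Me3 peaks, in the same order, had 2.74, 3.10 and 2.97. A gene without a peak was therefore not called at that depth, which does not show that the mark was absent. In brackets are 95% exact Poisson intervals on the estimated number of fragments, which cover counting error only and take the peak edges as given.

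The labelled tissue was checked first. Of 30 islet endocrine genes, 19, 21 and 21 had an H3K27Ac peak within 1000 bp of the gene start in RD, HFD and HFD-O304. These were 63.3%, 70.0% and 70.0% of the list, against 44.1%, 49.8% and 49.4% of all genes. The hormone genes Ins2, Gcg, Sst, Ppy and Iapp had no such peak in any diet, and Ins1 had it in RD and HFD alone. A missing call at a gene thus does not show that islets do not express it. Of 12 housekeeping genes, 10, 11 and 10 had the peak. Of 12 developmental genes that are known Polycomb targets, 10, 12 and 12 had an H3K27Me3 peak within 1000 bp of the start. The shares of all genes were 6.63%, 8.46% and 8.87%. None of the 12 had an H3K27Ac peak there.

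Few of the exocrine genes carried H3K27Ac at the promoter. Peaks were called at Cela3b and Bhlha15 in RD, which is 2 of 10 members against 44.1% of all genes. Only Bhlha15 had one in either HFD group, 1 of 10 members against 49.8% and 49.4% of all genes. H3K27Me3 was called at the promoter of no member in RD (6.63% of all genes) or HFD (8.46%), and at that of Ptf1a alone in HFD-O304 (8.87%). The remaining 7 members, Cpa1, Cela1, Cela2a, Pnlip, Prss2, Ctrb1 and Krt19, had neither mark at the promoter in any diet, as was true of 41.0% of all genes. The H3K27Me3 counts were near the shares of all genes.

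**Figure D1:**
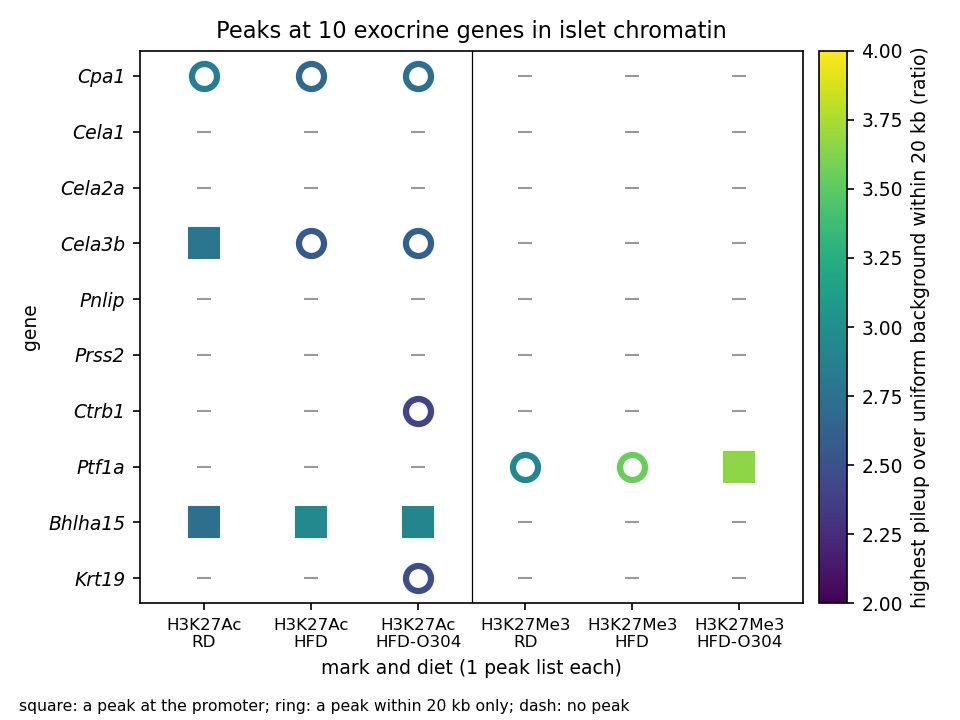
Peaks of the 10 genes (rows) in the 6 lists (columns, mark and diet). A square is a peak within 1000 bp of the gene start, a ring a peak elsewhere in the gene body or its 20 kb flanks, a dash no peak, and the colour is the enrichment of the strongest peak in the whole window as a ratio, which for Ptf1a in HFD-O304 is not the promoter peak. Rows of dashes run through Cela1, Cela2a, Pnlip and Prss2, and Ptf1a is the only gene with H3K27Me3.

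With the window widened to the gene body and 20 kb on either side, H3K27Ac was found at 3 members in RD (Cpa1, Cela3b and Bhlha15), the same 3 in HFD, and at 5 in HFD-O304, where Ctrb1 and Krt19 were added. The shares of all genes were 63.3%, 69.5% and 68.0%. H3K27Me3 was found at Ptf1a alone in each diet, 1 of 10 members against 29.9%, 30.6% and 36.4% of all genes. Cela1, Cela2a, Pnlip and Prss2 had neither mark in any diet, 4 of 10 members against 16.4% of all genes. In this window the start of the member was the nearest protein-coding start to every peak.

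Bhlha15 was the only member with H3K27Ac at the promoter in all 3 diets, a pattern found at 42.5% of all genes. The gene lies at chr5:144190286-144194441 on the plus strand, and the peak overlapped coding sequence behind its start. In HFD and HFD-O304 it also covered the start itself, while in RD it began 0.009 kb downstream of it. In RD the peak was 1877 bp wide with an enrichment of 2.72 (2.38 to 3.10). In HFD it was 1646 bp wide with an enrichment of 2.95 (2.59 to 3.34), and in HFD-O304 it was 2817 bp wide with an enrichment of 2.91 (2.63 to 3.23). The intervals of the 3 diets overlapped. By enrichment the peak stood above 31.0% of the RD list, 58.0% of the HFD list and 49.2% of the HFD-O304 list, so it was of ordinary strength. It was wider than at least 82.1% of the peaks of each list.

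A weaker H3K27Ac site lay about 5 kb upstream of Bhlha15, at the end of the neighbouring kinase gene Lmtk2, where it overlapped coding and untranslated exon sequence. Its enrichment was 2.51 with a width of 416 bp in RD islets, 2.38 with 906 bp in HFD islets and 2.54 with 1071 bp in HFD-O304 islets. Called in every diet, it nonetheless stayed close to the weakest value of each list. No H3K27Me3 peak lay nearer to the start of Bhlha15 than 97.04 kb in RD, 97.01 kb in HFD and 158 kb in HFD-O304.

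Ptf1a showed the opposite mark. The gene occupies chr2:19445663-19447501 on the plus strand, and its H3K27Me3 fell into 3 sites, about 14 kb upstream, at the promoter and about 2.6 kb downstream of the start. The upstream site overlapped exons of the noncoding gene Gm13344 and was called in every diet. It was a peak of 315 bp in RD with an enrichment of 2.93 (2.07 to 4.04) and a peak of 2525 bp in HFD with 3.55 (3.12 to 4.00). In HFD-O304 it was split into peaks of 231 bp and 518 bp with enrichments of 3.52 (2.28 to 5.21) and 3.66 (2.77 to 4.72). The RD value lay below the weakest peak of the HFD list and that of the HFD-O304 list.

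The promoter of Ptf1a held a peak of 1694 bp in HFD-O304, at chr2:19444638-19446331, with an enrichment of 3.14 (2.68 to 3.66). It covered the start site and overlapped coding sequence and an exon of the antisense gene Ptf1aos, and the assay does not tell the strands apart. Neither RD nor HFD had a peak there. Just behind the gene, a peak of 517 bp in HFD with an enrichment of 3.32 (2.48 to 4.40) was matched in HFD-O304 by a peak of 467 bp with 3.13 (2.29 to 4.21), and RD had none. The promoter peak exceeded only 19.4% of the HFD-O304 list in enrichment, and its value lay close to 3.10, the weakest peak of the HFD list. H3K27Ac was far from Ptf1a, at 73.6 kb from the start in each diet.

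**Figure D2:**
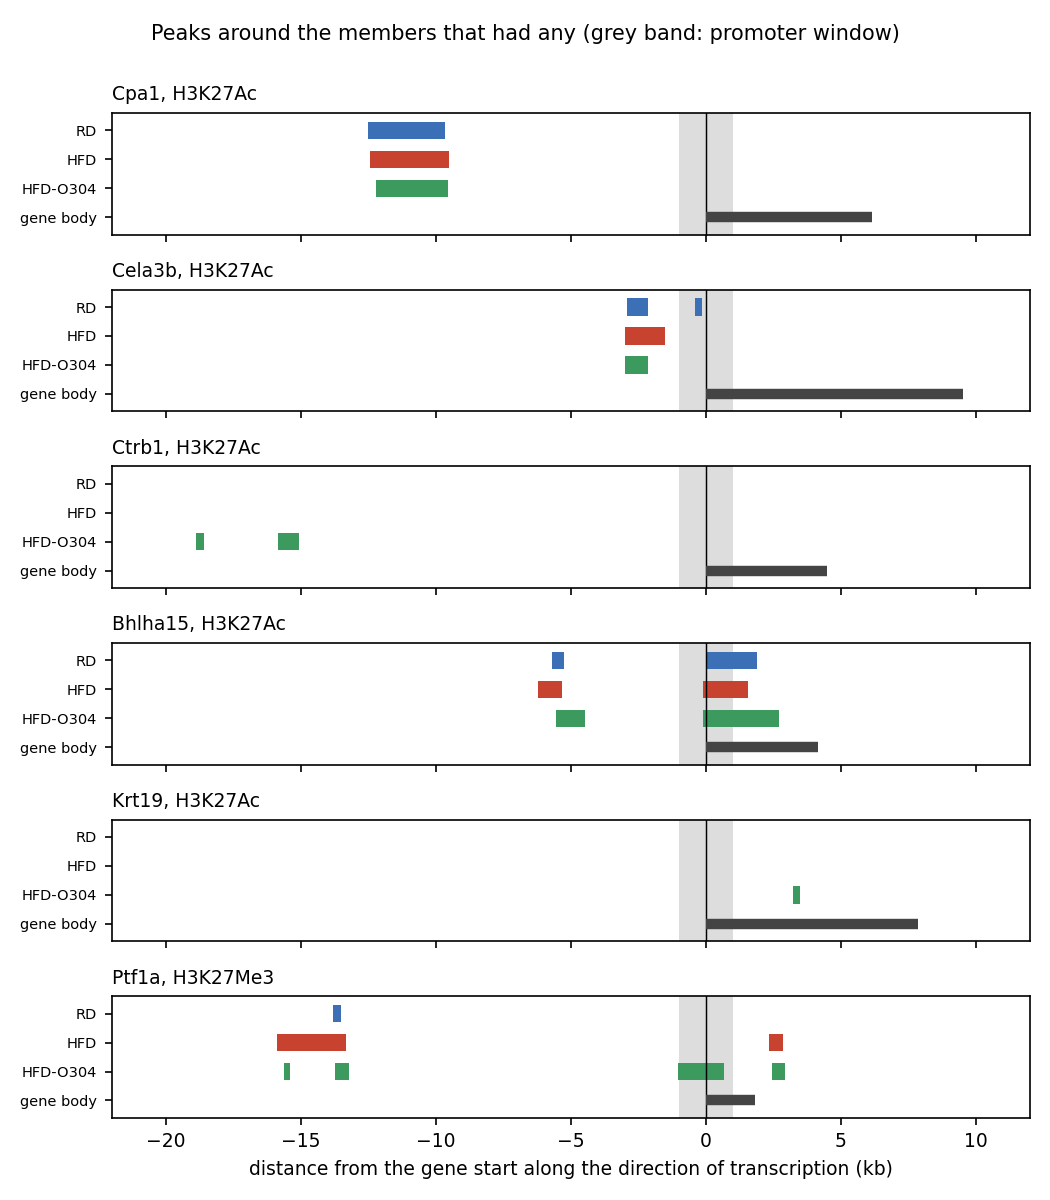
Position of every peak at the 6 members that had any, as distance from the gene start in kb along the direction of transcription, with 1 row of bars per diet, the gene body in dark grey and the promoter window as a light band. Peaks of all 3 diets line up about 11 kb upstream of Cpa1, about 2.5 kb upstream of Cela3b and at the start of Bhlha15, whereas the peaks of Ctrb1 and Krt19 and the promoter peak of Ptf1a occur in the HFD-O304 row alone.

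Cela3b, on chr4:137420999-137430540 on the minus strand, encodes a pancreatic elastase of the chymotrypsin-like family. Its promoter peak in RD was 289 bp wide, rested on about 36 fragments and had an enrichment of 2.78 (1.95 to 3.85). It was narrower than all but 3.14% of the peaks of its list. HFD and HFD-O304 had no peak within 1000 bp of the start. A second H3K27Ac site, about 2.5 kb upstream and in no annotated gene, was called in each diet, with widths of 770, 1490 and 848 bp in RD, HFD and HFD-O304. The enrichment was 2.68 (2.15 to 3.27), 2.55 (2.20 to 2.93) and 2.60 (2.12 to 3.17), values that overlapped throughout. In HFD this site began 1.52 kb from the start, nearer than the 2.15 kb of HFD-O304.

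Values at Cela3b carry an uncertainty of their own, since its neighbour Cela3a is a close copy that starts within 20 kb of it. Of the 50-base stretches in the Cela3b promoter window, 76.4% occurred once in the reference, against 94.9% or more in the promoter windows of the other 9 members. Over the RD promoter peak the share was 77.9%, and over the RD, HFD and HFD-O304 peaks of the upstream site it was 64.4%, 58.3% and 64.6%. Of the repeated stretches in these peaks, 53 of 53, 257 of 257, 570 of 601 and 283 of 283, in the same order, had a copy within 5 kb of Cela3a. Reads from the 2 genes may therefore be mixed in these peaks.

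Cpa1, which encodes the precursor of carboxypeptidase A1, had no peak at its own start on chr6:30639218-30645363 of the plus strand. An H3K27Ac site about 11 kb upstream was called in every diet, with an enrichment of 2.85 (2.57 to 3.16) in RD islets, 2.68 (2.42 to 2.95) in HFD islets and 2.72 (2.43 to 3.03) in those given O304. The peaks were 2864, 2900 and 2680 bp wide and exceeded at least 94.3% of their lists in width. The site lay within Cpa5, a gene of the same family, and touched exons of it in RD and HFD. Its position and strength differed little between the diets.

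Ctrb1, the gene of the chymotrypsinogen B precursor on chromosome 8, had peaks in HFD-O304 alone, outside any annotated gene. One lay 15.4 kb upstream, with 765 bp and an enrichment of 2.40 (1.91 to 2.97). The other lay 18.7 kb upstream, with 312 bp and an enrichment of 2.37 (1.67 to 3.36), which was the weakest value of that list, and 48.1% of its bases were repeat-masked. In RD and HFD the nearest H3K27Ac peak was 25.6 kb and 25.5 kb from the start, so the difference between diets rested on peaks at the calling limit.

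Krt19, a keratin of simple epithelia by which pancreatic ducts are commonly recognised, lies on chromosome 11 on the minus strand. It had a single peak, in HFD-O304, which lay 3.37 kb inside the gene and overlapped coding exon sequence. This H3K27Ac peak was 283 bp wide with about 32 fragments and an enrichment of 2.48 (1.71 to 3.52), and only 1.89% of the peaks of the list were narrower. Another annotated start of Krt19 lay within 1000 bp of this peak. In RD and HFD the nearest H3K27Ac peak was 162 kb and 155 kb away.

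**Figure D3:**
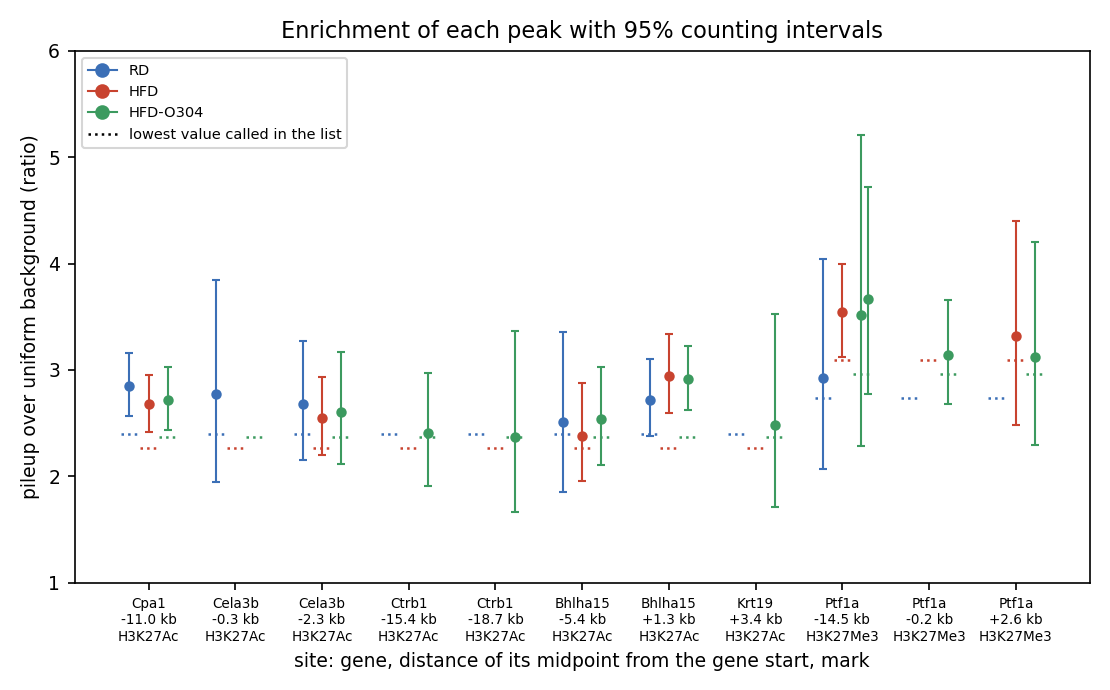
Enrichment (pileup over uniform background, a ratio) of every peak at the 11 sites of the members, with 95% counting intervals. Colours stand for diets, dotted ticks for the weakest peak of the list of that mark and diet, and a missing point means that no peak was called. Where several diets had a peak their intervals overlap, and sites with 1 diet sit at or near the ticks, except the RD peak at the Cela3b promoter.

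Of the enzyme genes without any peak in the window, Pnlip, the gene of pancreatic triglyceride lipase, and Prss2, that of a trypsinogen, stood farthest from H3K27Ac. The nearest peak was 197 kb, 179 kb and 197 kb from the start of Pnlip in RD, HFD and HFD-O304, and about 200 kb from Prss2 in each diet. As far or farther were 11.9%, 9.59% and 10.4% of all genes for Pnlip and 11.7%, 8.52% and 10.2% for Prss2. For the elastase genes Cela1 and Cela2a the distances were shorter, at 41.5 kb, 41.5 kb and 50.9 kb for Cela1 and 32.0 kb, 32.1 kb and 32.0 kb for Cela2a. Over the 10 members the median distance to H3K27Ac was 36.7, 36.8 and 23.6 kb in RD, HFD and HFD-O304, against 8.03 kb, 1.10 kb and 1.53 kb over all genes. For H3K27Me3 it was 147 kb, 87.6 kb and 58.2 kb against 75.3 kb, 73.5 kb and 57.5 kb. The RD and HFD medians of the members were farther from H3K27Me3 than those of all genes, and the HFD-O304 median nearly equalled it.

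The annotated start of Pnlip was 17.9 kb upstream of the RefSeq start. No peak of either mark lay at any annotated start of this gene, nor at any of those of Cela1, Cela2a, Prss2 and Ctrb1.

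Joined over the diets, the members' peaks formed 8 H3K27Ac and 3 H3K27Me3 sites. Of the H3K27Ac sites 4 were called in all diets, 1 in RD alone and 3 in HFD-O304 alone, and the corresponding shares of all 26255 H3K27Ac regions were 50.5%, 4.38% and 11.7%. Of the H3K27Me3 sites 1 was called in all diets, 1 in HFD and HFD-O304 and 1 in HFD-O304 alone, and the shares of all 27260 regions were 34.5%, 8.6% and 27.4%. No member site was called in HFD alone.

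In each pair of diets at most 1 of the 10 members differed in its promoter call. For H3K27Ac, Cela3b was called in RD and not in HFD, where 7.43% of all genes differed in either direction, and in RD and not in HFD-O304, where 7.42% differed. No member differed in H3K27Ac between HFD-O304 and HFD, while 5.17% of all genes did. For H3K27Me3, Ptf1a was called in HFD-O304 and not in HFD, where 3.17% of all genes differed in either direction, and in HFD-O304 and not in RD, where 4.45% differed. No member differed in H3K27Me3 between HFD and RD, while 4.03% of all genes did. With 10 members a single gene is 10.0% of them, so these counts cannot be set apart from the shares of all genes. The HFD-O304 list held 22049 H3K27Me3 peaks, against 15517 for RD and 15438 for HFD, and the part of this excess in the call at Ptf1a was not tested.

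The same question was put to the wider acinar and ductal gene lists. Among 37 other acinar genes, H3K27Ac was called at the promoters of 3, 3 and 2 in RD, HFD and HFD-O304, shares of 8.11%, 8.11% and 5.41% against the all-gene shares given above. Only Xbp1 and Foxp2 had the mark in every diet. Xbp1, a factor of the unfolded protein response that islet cells use as well, had enrichments of 5.12, 5.32 and 4.83 in RD, HFD and HFD-O304. Foxp2 had 3.06, 2.91 and 3.10. Rnase1, a pancreatic ribonuclease gene, had a peak at 2.40 in RD only, and Reg2, of the regenerating family, one at 2.32 in HFD only. The 2 last values were at or close to the weakest of their lists. None of the other trypsin, amylase, lipase and carboxypeptidase genes of the list had an H3K27Ac peak at the promoter.

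H3K27Me3 at other acinar promoters was found at 3 of 37 genes in each diet. This share of 8.11% was near the 6.63%, 8.46% and 8.87% of all genes in RD, HFD and HFD-O304. Reg2 had it throughout, with enrichments of 4.51, 5.11 and 5.62 in RD, HFD and HFD-O304, above any H3K27Me3 value of the 10 members. Rbpjl, the partner of Ptf1a in PTF1, had it in RD at 2.86 (2.39 to 3.43) and in HFD-O304 at 3.14 (2.64 to 3.72). Gata4 had it in HFD at 3.16 and in HFD-O304 at 3.13, and Foxp2 in RD at 2.92 and in HFD at 3.77. In HFD-O304 both Ptf1a and Rbpjl thus had H3K27Me3 at the promoter, each at 3.14, near the 2.97 of the weakest peak of that list. The RD value of Rbpjl lay below 3.10, the weakest peak of the HFD list, so its missing call in HFD is not comparable. The Reg genes are similar to each other, and how much of the Reg2 sequence is unique was not measured here.

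More of the ductal genes than of the acinar genes carried H3K27Ac. Among 36 other ductal genes, 15, 15 and 17 had H3K27Ac at the promoter in RD, HFD and HFD-O304, shares of 41.7%, 41.7% and 47.2% and close to those of all genes. Strongest was Epcam, an adhesion molecule of epithelia, with 4.11, 4.93 and 3.70. Clu (3.35, 3.56 and 3.50), the cadherin gene Cdh1 (3.30, 3.17 and 3.68) and the Notch target Hes1 (3.50, 3.41 and 3.36) were called in every diet. Prom1, Krt18, Slc4a4, Elf3, Dcdc2a and Krt7 were also called in every diet, between 2.40 and 3.58. Several of these, among them Epcam, Cdh1 and Krt18, are genes of epithelia in general, which islet cells express too. H3K27Me3 was called at 5, 4 and 6 ductal genes, shares of 13.9%, 11.1% and 16.7% against 6.63%, 8.46% and 8.87% of all genes. Among these were the transcription factor genes Onecut1 (3.51, 4.37 and 3.66) and Sox9 (3.01, 3.85 and 3.52). Cd24a had 3.10, 3.67 and 3.39, the carbonic anhydrase gene Car2 2.86, 3.48 and 3.13, and Anxa3 was called in RD and HFD-O304 at 2.94 and 3.23. The promoter of Cd24a also had H3K27Ac in RD at 2.45, and that of Car2 in HFD-O304 at 2.58. Of these widely used duct markers Sox9 carried the repressive mark at its promoter in every diet, whereas Krt19 had no peak of either mark at its own.

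Genes of other cells that an islet preparation can hold were examined in the same way. H3K27Ac was called at the promoters of 0, 1 and 2 of 12 macrophage genes, 2, 0 and 1 of 12 endothelial genes and 0, 1 and 0 of 12 stellate cell genes in RD, HFD and HFD-O304. The shares of all genes were 44.1%, 49.8% and 49.4%. H3K27Me3 was called at none of the macrophage genes, at 4, 5 and 5 of the endothelial genes and at 2, 3 and 5 of the stellate cell genes, against 6.63%, 8.46% and 8.87% of all genes. The share of these cells in the preparations was not measured.

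**Figure D4:**
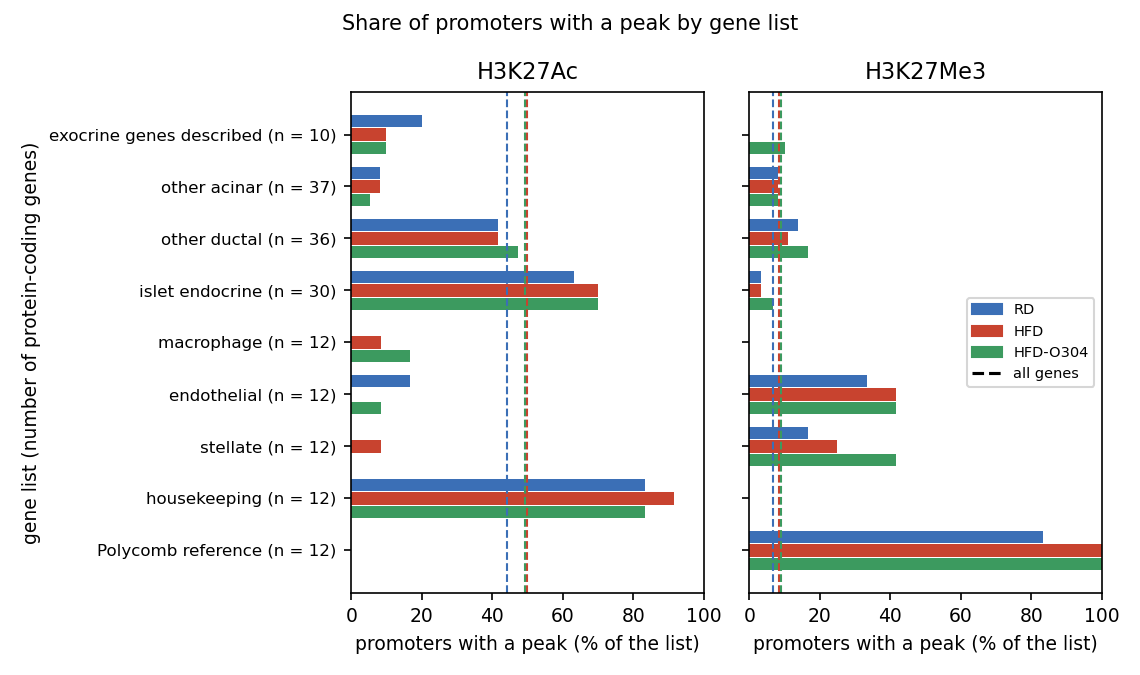
Share of the promoters of each gene list with a peak of H3K27Ac (left) or H3K27Me3 (right), in percent, with 1 bar per diet and the share over all genes as dashed lines. For H3K27Ac the exocrine genes described and the other acinar genes stay below the dashed lines, ductal genes lie near them and islet endocrine and housekeeping genes above them.

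The CpG content before the start varied among the members. RefSeq promoters were found for 9 of the 10, all but Krt19. Ptf1a had 19 CpG dinucleotides in the 250 bases before the start and Bhlha15 had 13. Of the enzyme genes Pnlip had 7, Cela1 6, Cela3b 3, Cpa1 and Cela2a 2 each, and Prss2 and Ctrb1 1 each. The median was 6 over all 32851 promoters of the table, noncoding genes included. The marked sets held protein-coding genes only, with 1 promoter per gene, so they are not like the whole table. Their medians were 18 for 7333 genes with H3K27Ac in every diet and 14 for 790 with H3K27Me3 in every diet. For 6542 genes with neither mark in any diet the median was 2. Marks were called at the GENCODE start, whereas CpG dinucleotides were counted before the RefSeq start. Bhlha15 had a mark at the promoter in every diet and Ptf1a in HFD-O304 alone, while in RD the other marked promoter was that of Cela3b, with few CpG dinucleotides.

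**Figure D5:**
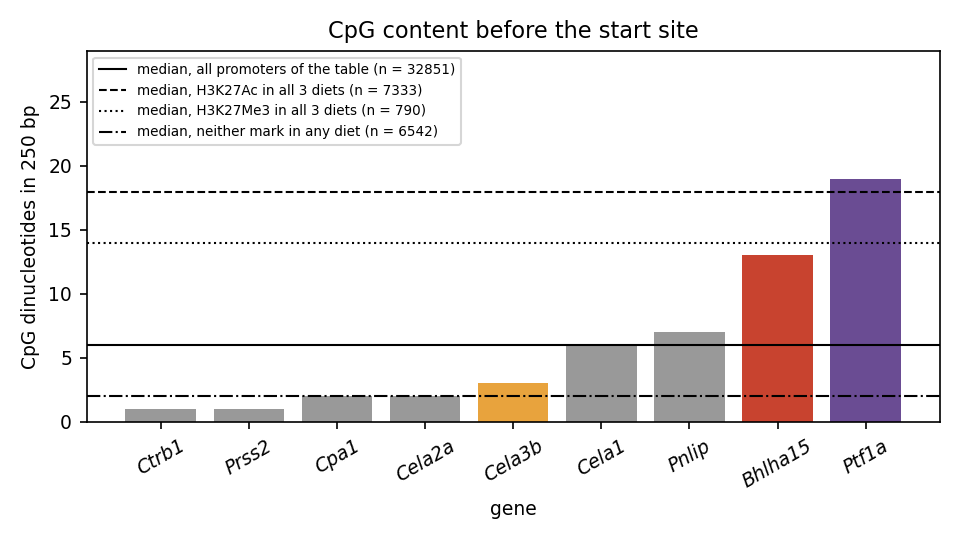
CpG dinucleotides in the 250 bases before the RefSeq start of 9 members, as bars (coloured where a promoter peak was called in at least 1 diet, grey otherwise), with the medians of 4 sets of promoters as lines. Ptf1a with 19 and Bhlha15 with 13 stand above the median of 6 over all promoters, and 5 enzyme genes have 3 or fewer.

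Motif letters were searched in the same 250 bases, TATAAA on the strand of the gene and the others on both strands, and none of the matches in the members overlapped. TATAAA occurred in 3 of 9 members, Cela1, Pnlip and Prss2, and in 7.59% of all promoters. CACCTG or CAGGTG occurred in 5 of 9 members and 17.2% of all promoters, and TTTCCC or GGGAAA in 5 of 9 members and 21.9% of all promoters. Both were found anywhere in the same 250 bases, at any spacing, in Cela1, Cela2a and Prss2, 3 of 9 members and 3.61% of all promoters. In the Cela1 sequence above, CACCTG began 109 bases and TTTCCC 99 bases before the start. The letters lay farther apart in the other 2 genes. In Cela2a, CAGGTG began 218 bases and GGGAAA 84 bases before the start. In Prss2, CACCTG began 169 bases and GGGAAA 110 and 78 bases before it. Whether any of them form a PTF1 site was not tested. None of these 3 genes had a peak of either mark within 20 kb.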

How the data were processed

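H3K27Ac and H3K27Me3 were measured by chromatin immunoprecipitation and sequencing of islets. The authors mapped 50-nt read pairs to GRCm38 (Ensembl release 96) with bowtie2, merged the 2 replicates of each mark and diet and ran MACS 2.1.2 in broad mode. The settings, per the file headers, were read pairs as fragments, 1 fragment per position, a q cutoff of 0.01 (the methods text names another), an effective genome size of 1.87e+09, and neither a local background nor a control. The deposited values used were the pileup, a coverage signal in fragments per base, the fold enrichment, a ratio of pileup to background with 1 added to both, and the −log10 q.

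Enrichment was recomputed as pileup over kept fragments times fragment length over genome size. The background used differs from the background implied by the deposited fold by 0.4515% to 2.2807%. The enrichment itself differs more from the deposited fold, which has 1 added to both terms. At the Ptf1a promoter in HFD-O304 the enrichment was 3.14 and the deposited fold 2.83, and at Cela3b in RD 2.78 and 2.62. Fragments per peak were estimated as pileup times width over fragment length. Depth sets the weakest peak a list can hold, so absence is not comparable between lists near that limit. In H3K27Me3 duplicates made up 45.7% to 56.9% of fragments, in H3K27Ac 17.2% to 18.4%.

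A gene was called when a peak overlapped 1000 bp either side of its start (GENCODE release 21) or the gene body with 20 kb. Peaks overlapping by at least 1 bp were joined into sites. The members, gene lists and rules were chosen with earlier results of these data known. All 10 members are named. Of the other acinar and ductal lists, up to 10 genes with the highest −log10 q for H3K27Ac and up to 5 for H3K27Me3 are named. Amy2b, of 38 acinar genes listed, is not annotated as protein-coding and was left out. Distances were available for 21938 genes. Repeated 50-base stretches were counted over the 239 reference sequences, patches included. Alternatives covered the windows, start sites, q, a common enrichment limit and repeat-masked bases. With 1 list per group no test was run. The overlap step was tested on simulated data and recovered 1000 of 1000 genes. Python 3.11.15, pandas 2.3.3 and numba 0.67.0 were used.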

Additional observations from a re-analysis of the deposited data

How the results depend on the processing

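No paired analysis was possible because each list pooled both replicates, and no leave-one-out value exists either. Of 108 alternative values, 78 stayed within 1.5 times the reported value and 30 moved. A promoter window of 500 bp moved none, and the deposited fold moved no promoter enrichment. The limit of 50% repeat-masked bases removed 0 of the members' peaks, so its 18 values, counted among the 78, could not have moved. Values follow in the order RD, HFD and HFD-O304. Shares over all genes were not computed at these settings, so the counts show only how the calls of the members moved. A −log10 q of at least 5 left 0, 1 and 0 members with H3K27Ac at the promoter and the same within 20 kb, all of them Bhlha15, and 0, 0 and 0 with H3K27Me3 in either window. The number of H3K27Ac promoter differences became 1 between HFD-O304 and HFD (Bhlha15, HFD only) and 0 between HFD-O304 and RD, and that of H3K27Me3 became 0 for both comparisons with HFD-O304. The H3K27Ac difference between HFD and RD stayed at 1, but was then Bhlha15 in HFD only. The −log10 q of the Bhlha15 promoter peak was 3.70, 6.08 and 4.97, so in HFD-O304 it fell just short of the limit. A window of 2000 bp gave 2 promoters with H3K27Ac in HFD by adding Cela3b, hence 0 differences between HFD and RD and 1 between HFD-O304 and HFD. Any annotated start gave 2 in HFD-O304 by adding Krt19, hence 1 difference from HFD and 2 from RD. With the gene body alone 1, 1 and 2 members had H3K27Ac and 0, 0 and 1 had H3K27Me3. With 50 kb flanks 6 members had H3K27Ac in RD and in HFD, and 3, 3 and 5 had H3K27Me3. At a common enrichment limit of 3.10 the RD peak near Ptf1a was lost, leaving 0 members with H3K27Me3 in RD.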
